A study of Sus scrofa with 12 samples.

Results

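The DNA methylation writers and erasers are the genes of the DNA methyltransferases, of the TET enzymes and of UHRF1. Their members were taken by symbol from the table of mRNAs (DNMT1, UHRF1, DNMT3A, DNMT3B, DNMT3L, TET1, TET2 and TET3), and all 8 were found among 21674 mRNAs. Testis RNA of 12 boars, reared alike and castrated for sampling, was sequenced after removal of ribosomal RNA. The groups were Ha (30-day-old Hezuo, HZ, boars), Hb (120-day-old HZ boars), La (30-day-old Landrace, LC, boars) and Lb (120-day-old LC boars), with 3 boars and so 3 libraries in each. Ha vs Hb and La vs Lb follow age within a breed, while Ha vs La and Hb vs Lb set the breeds side by side at 1 age. The study asked which transcripts accompany the early sexual maturity of HZ boars. Depth ran from 17165519 estimated counts over all mRNAs in Hb3 to 23758931 in Ha1.

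DNA methylation is written on cytosines, mostly in CG pairs, and represses many promoters, transposons and imprinted genes. DNMT1 copies the pattern onto new strands after replication with the help of UHRF1, DNMT3A and DNMT3B set it anew with the help of DNMT3L in germ cells, and TET enzymes oxidise methylcytosine on the way to its removal. In the male germ line, marks erased in the fetus are set again before birth and around it, and spermatogonia then divide, enter meiosis and form spermatids after puberty.

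The tissue label was checked against markers of testis cells. Sertoli markers summed to 1269.8, 1209.6 and 1664 CPM (a gene's counts relative to its library's total, scaled with TMM factors) in Ha and to 405, 579 and 467 in Hb, and Leydig and germ cell markers were detected in each library. Spermatid markers summed to 4.41 to 8.87 CPM in La and to 3154 to 4193 in Lb. These marker sums did not overlap between the ages, and in bulk RNA fewer cells of a type and less RNA per cell cannot be told apart.

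Per length, on the FPKM scale, DNMT1 had the highest level of the 8 genes in each group. In Ha its level was 29.3 ± 3.40 FPKM (mean ± SD, n = 3, as for all group means here), followed by DNMT3A at 15.7 ± 2.22 and UHRF1 at 9.67 ± 2.88. The order of levels then ran through TET2 (4.26 ± 0.276), DNMT3B (3.54 ± 0.811), TET1 (2.53 ± 0.335), TET3 (0.930 ± 0.0800) and DNMT3L (0.763 ± 0.455 FPKM). The ranges of TET2 and DNMT3B overlapped in Ha, as did those of TET3 and DNMT3L. In Hb the order of FPKM levels was DNMT1 (39.7 ± 8.33), UHRF1 (5.24 ± 0.280), DNMT3B (4.19 ± 0.693), DNMT3A (3.55 ± 1.005), TET2 (0.730 ± 0.0520), TET1 (0.667 ± 0.168), TET3 (0.260 ± 0.171) and DNMT3L (0.0467 ± 0.0643). The neighbours DNMT3B and DNMT3A, TET2 and TET1, and TET3 and DNMT3L overlapped there. DNMT3A thus came directly after DNMT1 in Ha and after UHRF1 and DNMT3B in Hb.

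LC boars gave a similar order. In La the FPKM levels were 22.7 ± 1.91 for DNMT1, 17.8 ± 0.958 for DNMT3A, 5.48 ± 0.365 for TET2, 5.46 ± 0.915 for UHRF1, 4.78 ± 0.895 for TET1, 2.65 ± 0.382 for DNMT3B, 1.09 ± 0.0569 for DNMT3L and 1.08 ± 0.791 for TET3. TET2, UHRF1 and TET1 were neighbours with overlapping ranges, and so were DNMT3L and TET3. In Lb the FPKM levels were 44.7 ± 6.83 for DNMT1, 6.47 ± 0.690 for UHRF1, 5.47 ± 0.265 for DNMT3A, 3.36 ± 0.734 for DNMT3B, 1.42 ± 0.389 for TET2, 1.18 ± 0.190 for TET1, 0.120 ± 0.0529 for TET3 and 0.0800 ± 0.0700 for DNMT3L. There UHRF1 overlapped DNMT3A, TET2 overlapped TET1 and TET3 overlapped DNMT3L. Against all mRNAs, the mean FPKM of DNMT1 exceeded that of 91.5% in Ha, 93.1% in Hb, 89.3% in La and 93.8% in Lb. For DNMT3A these shares were 83.4%, 61.2%, 86.1% and 66.1%, and for DNMT3L 41.7%, 19.1%, 45.2% and 21.3%. The transcript of the maintenance enzyme was therefore among the more abundant mRNAs of the testis, and that of the DNMT3A cofactor was below the middle at 30 days and lower at 120 days. FPKM serves here for the order within a group, and CPM for the change with age.

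With age, the de novo enzyme DNMT3A, its cofactor DNMT3L and the 3 TET genes were downregulated in both breeds, TET3 less firmly in HZ boars, and DNMT1 was upregulated in LC boars. A gene was called where its edgeR adjusted p was under 0.05 and its log2 fold change was over 1 in size, with n = 3 in each group and the standard error after ±. In Ha vs Hb, 5 of the 8 members were called, against 8510 of 16548 (51.4%) mRNAs tested. All 5 were lower in Hb, against 3844 of 16548 (23.2%) mRNAs, and 0 were higher, against 4666 of 16548 (28.2%). By the adjusted p alone 7 of 8 passed (2 higher and 5 lower), against 11394 of 16548 (68.9%). In La vs Lb, 6 of the 8 members were called, against 7926 of 16637 (47.6%) mRNAs. Of these, 5 were lower in Lb, against 3352 of 16637 (20.1%), and 1 was higher, against 4574 of 16637 (27.5%). By the adjusted p alone all 8 passed, against 11639 of 16637 (70.0%). The calls lay almost all on the lower side, and the members' median log2 fold change was -1.41 in HZ boars and -1.61 in LC boars. All tested mRNAs had medians of -0.02 and 0.01.

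The size of these changes depends on the scale. With library sizes only, in place of TMM factors, the median of all mRNAs moved by -0.30 in Ha vs Hb (a median of -0.32), by -0.17 in La vs Lb (a median of -0.16) and by 0.15 in the breed-by-age interaction. The calls in Ha vs Hb were then 3978 higher and 5039 lower (44.1% higher), against 54.8% higher with TMM. In Hb vs Lb 79.7% of the calls were higher in Lb on log2(FPKM + 1), against 68.8% with TMM. On log2(FPKM + 1) the median was -0.28 in HZ boars and -0.16 in LC boars, and 42.3% of the calls in Ha vs Hb were higher. On log2(FPKM + 0.1) the medians were -0.47 and -0.27, and 38.5% of the calls in Ha vs Hb were higher. In La vs Lb the balance of calls over all mRNAs also turned on that scale, to 3806 higher and 4445 lower (46.1% higher), against 57.7% with TMM. No member changed its direction with age with library sizes only, RLE factors or FPKM.

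**Figure D1:**
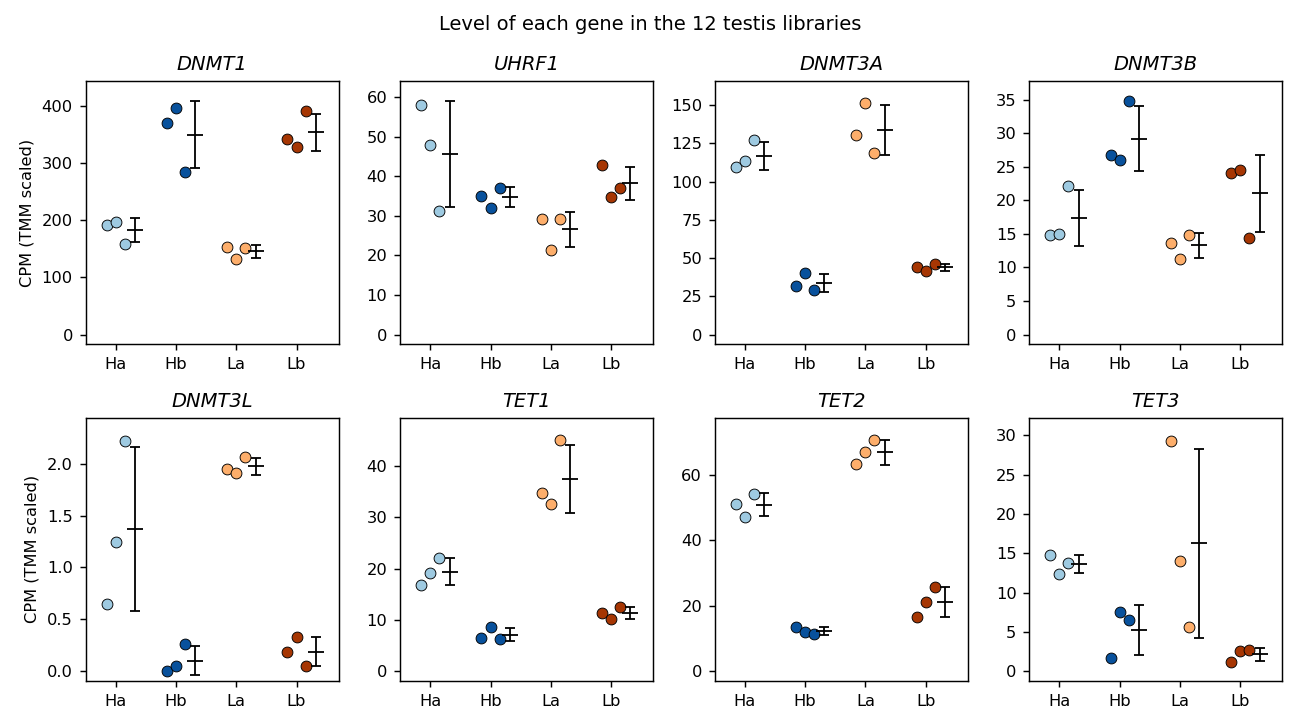
Level of each gene in CPM scaled with TMM factors (vertical axes, each starting near 0), with 1 point for each of the 12 libraries and the mean ± SD of 3 libraries beside them. DNMT3A, DNMT3L, TET1 and TET2 are lower in each 120-day library than in each 30-day library, while DNMT1 is higher.

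Maintenance of methylation rests on DNMT1, the methyltransferase that acts on replicated DNA. DNMT1 was at 192, 196 and 159 CPM in Ha1 to Ha3 and at 369, 395 and 283 in Hb1 to Hb3. The corresponding values were 153, 132 and 151 CPM in La and 342, 328 and 390.0 in Lb. Each 120-day library was above each 30-day library, and Hb3 was the lowest of the older boars. DNMT1 had a log2 fold change of 0.94 ± 0.16 (edgeR adjusted p = 0.00158) in HZ boars, under the fold threshold, and 1.298 ± 0.12 (edgeR adjusted p = 2.47e-05) in LC boars, a 2.46-fold upregulation. The difference between these changes was 0.34 ± 0.20 (edgeR adjusted p = 0.326) in the interaction of breed and age. Without Hb3 the value in Ha vs Hb was 1.07 and was called. With limma on log2(FPKM + 1), DNMT1 had 0.41 there (adjusted p = 0.0574, from a range of 9.24e-08 to 0.058 over the alternatives) and 0.94 in LC boars. There it had 0.97 on log2(FPKM + 0.1), so the call in LC boars was lost on both FPKM scales.

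UHRF1 binds hemimethylated DNA and brings DNMT1 to it. Its levels were 58.0, 47.8 and 31.4 CPM in Ha, 35.1, 32.04 and 37.0 in Hb, 29.2, 21.5 and 29.2 in La and 42.8, 34.9 and 37.0 in Lb. Ha1 and Ha2 were the highest of the 12 libraries, Ha3 lay below each Hb library, and each La library was below each of the others on this scale. On the FPKM scale, with 12.3, 10.2 and 6.57 in Ha, 4.96, 5.23 and 5.52 in Hb and 5.92, 4.41 and 6.06 in La, Ha3 and 2 La libraries lay above each Hb library. UHRF1 had a log2 fold change of -0.40 ± 0.23 (edgeR adjusted p = 0.153) in HZ boars and 0.54 ± 0.16 (edgeR adjusted p = 0.0168) in LC boars, so the adjusted p passed in LC boars alone, under the fold threshold. For UHRF1 the interaction was 0.92 ± 0.29 (edgeR adjusted p = 0.0796). It passed both thresholds without Ha3, at 1.17 (adjusted p = 0.0161), and with library sizes only, at 1.08 (adjusted p = 0.0421), with a range of 0.0372 to 0.096 over the alternatives. Without Ha3 the change in Ha vs Hb was -0.61 with an adjusted p of 0.0193, and without La2 or Lb1 the adjusted p in La vs Lb was 0.0583 or 0.0551. Over the alternatives that keep all libraries the log2 fold change ran from -0.83 to -0.34 in HZ boars (adjusted p from 0.013 to 0.227) and from 0.21 to 0.56 in LC boars (adjusted p from 0.00419 to 0.213).

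UHRF1 does not stand alone at its locus. It shares 2190 bases with ARRDC5, an arrestin-domain gene, whose estimated counts were 0, 0 and 2 in Ha, 1226, 1331 and 1165 in Hb, 2, 1.41 and 3 in La and 1203, 1202 and 896 in Lb. ARRDC5 thus had at most 3 counts in each 30-day library and at least 896 in each 120-day library, while UHRF1 had 605, 690.0 and 561 counts in Hb and 926, 741 and 721 in Lb. How reads in the shared bases were divided is not given in the sources used here, so the UHRF1 level at 120 days is uncertain.

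Of the 2 de novo enzymes, DNMT3A was lower at 120 days in both breeds. DNMT3A was at 109.8, 113 and 127 CPM in Ha and 31.7, 40.2 and 28.9 in Hb, and at 130.5, 152 and 119 CPM in La and 44.3, 41.6 and 46.3 in Lb. The 30-day libraries all lay above 100 CPM and the 120-day libraries all below 50. The log2 fold change was -1.80 ± 0.16 (edgeR adjusted p = 6.05e-05) in HZ boars and -1.58 ± 0.12 (edgeR adjusted p = 9.55e-06) in LC boars, or 3.47-fold and 3.00-fold lower at 120 days. Its interaction was 0.19 ± 0.20 (edgeR adjusted p = 0.587). DNMT3A was called without each library in turn and in each of the alternatives.

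DNMT3B, the other active de novo enzyme, had changes of the opposite sign. Its levels were 14.9, 14.98 and 22.1 CPM in Ha, 26.8, 26.0 and 34.8 in Hb, 13.7, 11.3 and 14.9 in La and 24.1, 24.6 and 14.4 in Lb. In HZ boars the older group lay above the younger, whereas Lb3 fell inside the La range. DNMT3B had a log2 fold change of 0.75 ± 0.22 (edgeR adjusted p = 0.0187) in HZ boars and 0.67 ± 0.23 (edgeR adjusted p = 0.0264) in LC boars, both under the fold threshold. The adjusted p in Ha vs Hb was 0.0704, 0.0697 and 0.0592 without Ha1, Ha2 and Hb3 and 0.107 with library sizes only, from a range of 0.00319 to 0.338 over the alternatives. In La vs Lb it was 0.0598, 0.0946, 0.0828 and 0.0891 without La1, La2, Lb1 and Lb2 and 0.0632 with library sizes only, from a range of 0.00937 to 0.219. The interaction of DNMT3B was -0.09 ± 0.33 (edgeR adjusted p = 0.905).

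DNMT3L has no methyltransferase activity of its own and stimulates DNMT3A in male germ cells. It was the rarest member in raw terms, with 17, 31 and 57 estimated counts in Ha, 0, 1 and 4 in Hb, 46, 38 and 52 in La and 4, 7 and 1 in Lb. In CPM these were 0.652, 1.25 and 2.21 in Ha and 1.95, 1.91 and 2.07 in La. Each 30-day library was above each 120-day library, and the La libraries lay close together while Ha ran from 0.652 to 2.21 CPM. The summed counts, 105 against 5, gave a ratio of Ha over Hb of 14.8 (exact 95% interval 6.13 to 46.4), and 136 against 12 gave a ratio of La over Lb of 10.3 (5.70 to 20.4). These intervals cover counting error only. The fitted log2 fold change was -3.77 ± 0.95 (edgeR adjusted p = 0.00913) in HZ boars and -3.32 ± 0.52 (edgeR adjusted p = 0.000541) in LC boars. Without Hb3 the former was -5.48, and without Lb2 the latter was -3.96. DNMT3L had an interaction of 0.43 ± 1.10 (edgeR adjusted p = 0.856). On log2(FPKM + 1) its changes with age were -0.72 and -0.96, under the fold threshold.

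TET1 and TET2 were downregulated in both breeds under each alternative, while the call of TET3 in HZ boars was lost in several settings given with its values. TET1 was at 16.8, 19.2 and 22.1 CPM in Ha and 6.44, 8.59 and 6.26 in Hb, and at 34.8, 32.6 and 45.1 CPM in La and 11.3, 10.3 and 12.5 in Lb. The groups followed the order La, Ha, Lb and Hb with no overlap. The log2 fold change of TET1, whose product oxidises methylcytosine and has a domain that binds CG-rich DNA, was -1.45 ± 0.21 (edgeR adjusted p = 0.000643) in HZ boars and -1.71 ± 0.18 (edgeR adjusted p = 4.7e-05) in LC boars. TET2, which lacks such a domain, was at 51.1, 47.2 and 54.2 CPM in Ha and 13.6, 11.8 and 11.4 in Hb, and at 63.2, 66.8 and 70.7 CPM in La and 16.6, 21.2 and 25.8 in Lb. The order of the groups was the same as for TET1, again with no overlap. TET2 had log2 fold changes of -2.05 ± 0.15 (edgeR adjusted p = 2.9e-05) in HZ boars and -1.64 ± 0.18 (edgeR adjusted p = 6.09e-05) in LC boars, or 4.14-fold and 3.12-fold lower at 120 days. The interactions were -0.28 ± 0.26 (edgeR adjusted p = 0.55) for TET1 and 0.39 ± 0.22 (edgeR adjusted p = 0.305) for TET2. Both genes were called with age without each library in turn and in each of the alternatives.

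TET3, known for the oxidation of the paternal genome after fertilisation, varied more between boars. It was at 14.8, 12.4 and 13.7 CPM in Ha, 1.62, 7.57 and 6.53 in Hb, 29.3, 14.0 and 5.603 in La and 1.20, 2.64 and 2.67 in Lb. Hb1 lay far below Hb2 and Hb3, and La1 was about 5 times La3, yet the age groups did not overlap within either breed. TET3 had a log2 fold change of -1.38 ± 0.49 (edgeR adjusted p = 0.0377) in HZ boars and -2.89 ± 0.60 (edgeR adjusted p = 0.00254) in LC boars, with an interaction of -1.53 ± 0.84 (edgeR adjusted p = 0.294). The call in Ha vs Hb was lost without Ha1, Ha2, Ha3 or Hb3 (adjusted p = 0.0917, 0.0677, 0.0793 and 0.0577), without Hb1 (log2 fold change -0.94), with all 12 libraries in 1 fit (adjusted p = 0.0541, from a range of 0.00184 to 0.0541 over the alternatives) and on log2(FPKM + 1) (log2 fold change -0.62). In La vs Lb the value was -2.16 without La1 and -0.83 on log2(FPKM + 1).

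**Figure D2:**
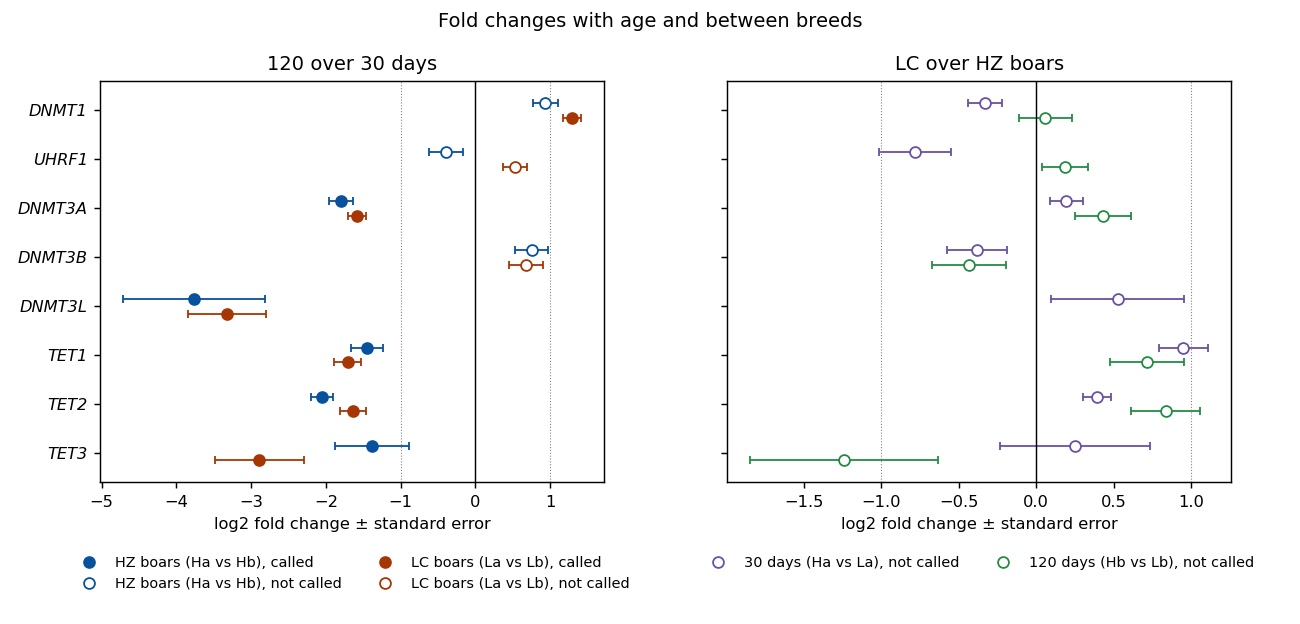
Log2 fold change ± standard error of each gene (horizontal axes) at 120 over 30 days in HZ and LC boars (left) and of LC over HZ boars at each age (right), with filled points for calls and dotted lines at the fold threshold of 1. DNMT3A, DNMT3L, TET1, TET2 and TET3 lie to the left of the lower threshold in both breeds on the left, and no point on the right is filled. DNMT3L was not tested in Hb vs Lb.

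The balance between the enzymes can be read from shares and ratios within a library, which do not depend on the scaling between libraries. The summed FPKM of DNMT1, DNMT3A and DNMT3B was 48.6, 49.0 and 48.1 in Ha, 45.5, 57.2 and 39.7 in Hb, 44.0, 41.7 and 43.9 in La and 50.7, 49.1 and 60.8 in Lb. Unlike the shares, these sums carry the FPKM scale of each library and are not compared between ages. DNMT1 took 60.4 ± 6.57% of this sum in Ha and 83.4 ± 2.79% in Hb, and 52.6 ± 2.86% in La and 83.3 ± 2.79% in Lb. DNMT3A took 32.3 ± 4.83% in Ha, 7.41 ± 0.767% in Hb, 41.3 ± 3.51% in La and 10.3 ± 0.842% in Lb, with no overlap between ages. The share of DNMT3B stayed between 4.13 and 12.5% in the 12 libraries.

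**Figure D3:**
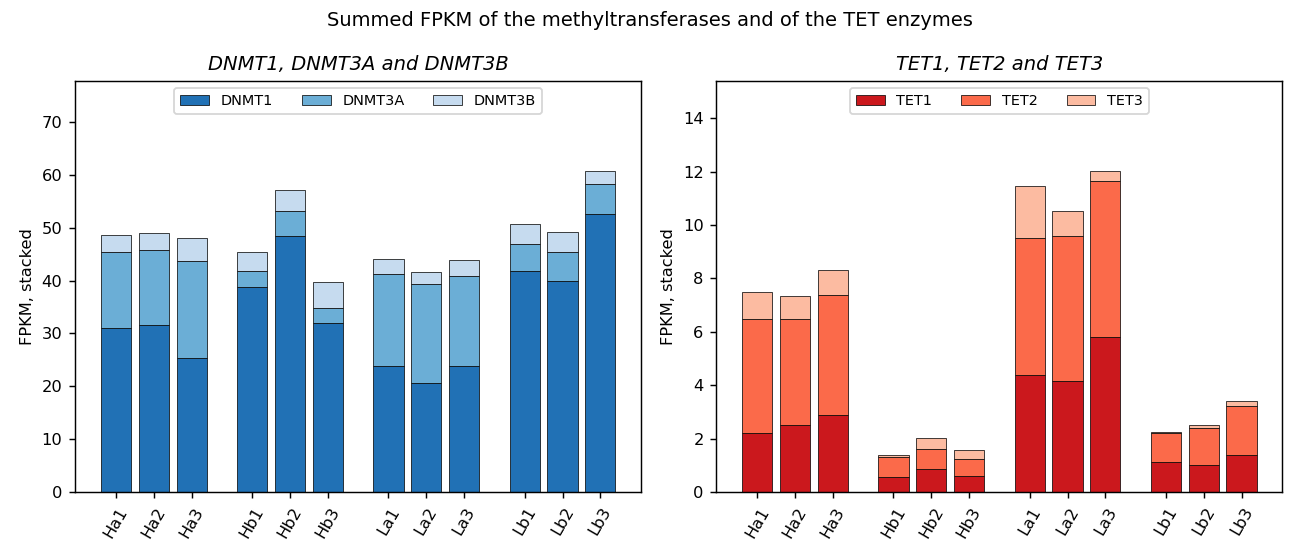
FPKM of the methyltransferases (left) and of the TET enzymes (right), stacked for each of the 12 libraries (bars start at 0). The height of a bar carries the FPKM scale of its library, and the DNMT3A part of the left bars is a smaller share at 120 days.

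As log2 ratios of FPKM, DNMT1 over DNMT3A was 0.91 ± 0.37 in Ha and 3.49 ± 0.16 in Hb, and 0.35 ± 0.20 in La and 3.02 ± 0.17 in Lb. DNMT3A over DNMT3B was 2.16 ± 0.12 in Ha, -0.26 ± 0.50 in Hb, 2.75 ± 0.29 in La and 0.73 ± 0.40 in Lb. The younger testes thus held more DNMT3A than DNMT3B per length, while in Hb the ratio was on either side of 0. DNMT1 over UHRF1 was 1.64 ± 0.31 in Ha, 2.90 ± 0.35 in Hb, 2.07 ± 0.13 in La and 2.78 ± 0.20 in Lb, so on these values the enzyme and its partner did not keep a fixed ratio. At 120 days this ratio carries the uncertainty of the UHRF1 level, since UHRF1 shares bases with ARRDC5. On the FPKM scale of each library, the TET sum was 7.71 ± 0.531 FPKM in Ha, 1.66 ± 0.326 in Hb, 11.3 ± 0.756 in La and 2.72 ± 0.592 in Lb. TET2 made up 55.2 ± 1.68% of it in Ha, 45.1 ± 8.72% in Hb, 48.4 ± 3.57% in La and 51.9 ± 3.92% in Lb, and TET1 32.7 ± 2.89%, 40.0 ± 2.71%, 41.96 ± 5.44% and 43.8 ± 5.35%. In Ha, Hb, La and Lb, TET1 over TET2 was -0.76 ± 0.17, -0.15 ± 0.31, -0.21 ± 0.19 and -0.25 ± 0.28, and the corresponding values were 1.43 ± 0.27, 1.60 ± 1.07, 2.40 ± 1.38 and 3.28 ± 0.66 for TET1 over TET3 and 2.18 ± 0.10, 1.75 ± 1.31, 2.62 ± 1.26 and 3.53 ± 0.39 for TET2 over TET3. In Hb and La the ratios to TET3 had a wider spread than the other ratios given. An exact permutation test of 3 against 3 libraries cannot give a two-sided p under 0.1, so shares and ratios are given with their spread and no test.

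Between the breeds, TET1 and TET2 were higher in LC than in HZ boars at 30 days and UHRF1 was lower, by amounts under the fold threshold. In Ha vs La, 0 of the 8 members were called with edgeR, against 1192 of 15648 (7.62%) mRNAs, and 0 were called with DESeq2 or with limma on either FPKM scale. By edgeR, 4 of the 8 had an unadjusted p under 0.05, against 5703 of 15648 mRNAs. By the adjusted p alone 3 of 8 passed, against 3333 of 15648 (21.3%). TET1 had a log2 fold change of 0.95 ± 0.16 (edgeR adjusted p = 0.00653), TET2 of 0.39 ± 0.09 (edgeR adjusted p = 0.021) and UHRF1 of -0.78 ± 0.23 (edgeR adjusted p = 0.0464). The libraries of these genes did not overlap between Ha and La, nor did those of DNMT1, at -0.33 ± 0.11 (edgeR adjusted p = 0.0672), and of DNMT3B, at -0.38 ± 0.19 (edgeR adjusted p = 0.192). The groups overlapped for DNMT3A at 0.19 ± 0.11 (edgeR adjusted p = 0.232), DNMT3L at 0.53 ± 0.43 (edgeR adjusted p = 0.414) and TET3 at 0.25 ± 0.48 (edgeR adjusted p = 0.744). TET1 passed both thresholds without Ha3, La1 or La2 (log2 fold changes 1.051, 1.02 and 1.06). The adjusted p of UHRF1 was 0.139, 0.115, 0.0895, 0.135 and 0.0983 without Ha1, Ha2, La1, La2 and La3, and that of TET2 was 0.064, 0.0765, 0.0548 and 0.0639 without Ha1, Ha2, La2 and La3. Over the alternatives with all libraries it ran from 0.00579 to 0.0733 for UHRF1 and from 0.00202 to 0.127 for TET2. That of DNMT1 was 0.0198 without Ha3 and 0.0352 with DESeq2, from a range of 0.0352 to 0.172.

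At 120 days no member differed between the breeds by the test, and TET1 and TET2 again had the higher values in LC boars. In Hb vs Lb, 0 of 7 members tested were called with edgeR, against 628 of 16311 (3.85%) mRNAs, and 0 by the adjusted p alone, against 892 of 16311 (5.47%). DESeq2 and limma also called 0 members. By edgeR, 3 of the 7 had an unadjusted p under 0.05, against 4153 of 16311 mRNAs. DNMT3L, at 0 to 7 counts in these 6 libraries, did not pass the filter. The count of mRNAs called was 1029 without Hb2, 119 without Hb3, 182 without Lb1, 97 without Lb2 and 139 without Lb3. The largest of the values with groups that did not overlap were TET2 at 0.84 ± 0.22 (edgeR adjusted p = 0.0683) and TET1 at 0.71 ± 0.24 (edgeR adjusted p = 0.117), followed by DNMT3A at 0.43 ± 0.18 (edgeR adjusted p = 0.186) and DNMT3B at -0.43 ± 0.24 (edgeR adjusted p = 0.292). TET3 was at -1.24 ± 0.61 (edgeR adjusted p = 0.242), UHRF1 at 0.19 ± 0.15 (edgeR adjusted p = 0.466) and DNMT1 at 0.06 ± 0.17 (edgeR adjusted p = 0.858), with groups that overlapped. For TET2 the adjusted p was 0.0118 with DESeq2 and 0.00852 with all 12 libraries in 1 fit, where that of TET1 was 0.0327. Their ranges over the alternatives were 0.00852 to 0.143 and 0.0327 to 0.198.

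Whether the change with age differed between the breeds was asked with an interaction term over the 12 libraries. There 0 of the 8 members were called with edgeR, against 890 of 17332 (5.14%) mRNAs, and 0 by the adjusted p alone, against 1256 of 17332 (7.25%). Only UHRF1 of the members had an unadjusted p under 0.05 by edgeR, against 4180 of 17332 mRNAs. DESeq2 also called 0, and limma on log2(FPKM + 0.1) called 1, which was UHRF1. UHRF1 was also called with library sizes only and without Ha3 (log2 fold change 1.17). Apart from these settings for UHRF1, the changes with age of the 8 genes were not shown to differ between HZ and LC boars. Over all mRNAs the count called was 437 without Ha1, 501 without Ha2, 566 without Hb3, 577 without La1, 490 without La2, 461 without La3 and 575 without Lb2. With library sizes only the calls over all mRNAs were 882 higher and 199 lower (81.6% higher), against 609 higher and 281 lower (68.4%) with TMM.

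The 8 genes lie on 6 chromosomes of the pig genome (build Sscrofa11.1). DNMT1 (ncbi_606746, chr2:68981564-69040364) and UHRF1 (ncbi_100511003, chr2:73898061-73937727) share chromosome 2, and DNMT3A (ncbi_100037301, chr3:113501972-113609148) and TET3 (ncbi_100520484, chr3:68918896-69020406) share chromosome 3. The others are DNMT3B (ncbi_100302109, chr17:36345715-36386076), DNMT3L (ncbi_100621554, chr13:207119025-207141990), TET1 (ncbi_100625859, chr14:71675671-71812732) and TET2 (ncbi_100521465, chr8:116413253-116546976). TET3 shares 342 bases with LOC102163719, a gene that had 19, 17 and 18 counts in Ha, 0, 6 and 2 in Hb, 15, 24 and 25 in La and 3, 3 and 3 in Lb. TET3 had 385, 309 and 354 counts in Ha, 28.0, 163 and 98.8 in Hb, 691, 279 and 141 in La and 25.6, 56.4 and 52.4 in Lb, so the neighbour was lower in each library, and nearest to TET3 in La3 among the 30-day libraries. A pseudogene of 682 bases, LOC106508086, lies within TET1 and has no entry among the mRNAs.

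A readout that the choice of members did not use is the lncRNA table. Within 10 kb of the members it held 1 lncRNA, the assembled transcript MSTRG.5757.8 (chr3:113510091-113529266, plus strand, 2 exons of 3069 bases in all), which overlaps DNMT3A. The assembly marks the overlap as one on the strand of the gene, so its reads and those of DNMT3A cannot be told apart here. Its estimated counts were 89.5, 69.1 and 71.5 in Ha, 12.4, 4.89 and 23.4 in Hb, 125, 129 and 67.5 in La and 16.5, 16.3 and 17.2 in Lb. Each 30-day library was above each 120-day library, as for DNMT3A. This lncRNA had a log2 fold change of -2.62 ± 0.61 (edgeR adjusted p = 0.0082) in HZ boars and -3.11 ± 0.38 (edgeR adjusted p = 0.000346) in LC boars. Among all lncRNAs tested, 17.6% and 19.3% were called lower in these comparisons. It was 0.53 ± 0.29 (edgeR adjusted p = 0.35) in Ha vs La and 0.14 ± 0.64 (edgeR adjusted p = 0.936) in Hb vs Lb.

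The estimated count and the FPKM of a gene together imply the length over which its reads were spread, a measure chosen after the data were seen. It needs the fragment total behind the FPKM of each library, which was estimated as a median over assembled lncRNAs of known exon length (215 to 1012 in a library). The implied length of DNMT3A was 6399, 6719 and 5861 bases in Ha, 5841, 5538 and 5929 in Hb, 6114, 6626 and 5813 in La and 5532, 4923 and 5822 in Lb. The ranges of the ages overlapped in both breeds, and the SD within a group, 205 to 459 bases, was wider than that of each other member with an implied length in that group. For DNMT1 the group means lay at 5257, 5312, 5282 and 5335 bases in Ha, Hb, La and Lb, and for TET2 at 10093, 10094, 10096 and 10092. The ages did not overlap for DNMT1, at 5245 to 5264 bases in Ha, 5289 to 5351 in Hb, 5262 to 5301 in La and 5323 to 5357 in Lb. For UHRF1 the ages did not overlap in LC boars, at 4025 to 4042 bases in La and 3971 to 3978 in Lb. In HZ boars UHRF1 was at 3990 to 4020 bases in Ha and 3972 to 3989 in Hb. There Ha2 (3987.8 to 3991.7 with the rounding of FPKM) and Hb3 (3985.7 to 3992.9) could not be told apart. The cause was not tested.

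The mRNAs with the pattern most like that of 7 members over the 12 libraries were taken by Pearson's r of log2 CPM, as a description, since the libraries share age and breed. For DNMT1 they were MPP2 (0.990), MAGEA10 (0.986) and C1H14orf166 (0.986), and for UHRF1 PCYT1A (0.932), ANPEP (0.883) and MYBL2 (0.870). For DNMT3A they were KIF13A (0.992), ESYT1 (0.991) and ST6GAL1 (0.991), for DNMT3B LPIN2 (0.956), SKAP2 (0.920) and NEFM (0.915) and for DNMT3L ADCY8 (0.983), CASP2 (0.975) and TNFSF12 (0.974). Among the erasers they were MAGEF1 (0.994), PLXDC2 (0.992) and TMED10 (0.990) for TET1 and IFNAR2 (0.999), TNFAIP8 (0.993) and ACVR1 (0.991) for TET2. Within an age, over 6 libraries, r for the first of these genes at 30 and 120 days was 0.949 and 0.860 for DNMT1, 0.977 and 0.298 for UHRF1, 0.720 and 0.930 for DNMT3A, 0.957 and 0.975 for DNMT3B, 0.953 and 0.911 for DNMT3L, 0.991 and 0.991 for TET1 and 0.989 and 0.991 for TET2. Over the 3 genes of each of these members it ran from 0.598 to 0.993 at 30 days and from 0.298 to 0.991 at 120 days.

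The genes that act with the members were described by lists, with the genes called in each counted and read against the shares of all mRNAs called. These were 28.2% higher and 23.2% lower at 120 days in HZ boars and 27.5% and 20.1% in LC boars. Genes that repair the bases oxidised by TET enzymes gave, of 12 tested, 2 higher and 8 lower at 120 days in HZ boars (median log2 fold change -1.15) and 2 higher and 4 lower in LC boars (-0.77). TDG, the glycosylase that excises those bases, had log2 fold changes of -1.09 (adjusted p = 0.00693) in HZ and -1.18 (adjusted p = 0.000132) in LC boars and so was lower along with TET1, TET2 and TET3. GADD45G, which is tied to demethylation, had -1.56 (adjusted p = 0.0154) in HZ and -2.28 (adjusted p = 1.77e-05) in LC boars, and 1.69 (adjusted p = 0.00812) in Ha vs La. The polymerase POLB had 2.203 (adjusted p = 8.89e-05) in HZ and 2.09 (adjusted p = 2.32e-05) in LC boars and the ligase LIG3 2.17 (adjusted p = 4.32e-05) in HZ and 2.01 (adjusted p = 2.54e-06) in LC boars, opposite to the TET genes.

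Methyl groups for DNMT enzymes come from the folate and methionine cycles, whose genes gave, of 13 tested, 3 higher and 4 lower at 120 days in HZ boars (median log2 fold change -0.50) and 2 higher and 2 lower in LC boars (-0.54). These counts stood near the 28.2% higher and 23.2% lower of all mRNAs in HZ boars and under the 27.5% and 20.1% in LC boars. MTHFD1 and SHMT1, which handle folate carbon, had -2.51 (adjusted p = 4.33e-05) in HZ and -1.41 (adjusted p = 3.86e-05) in LC boars for MTHFD1 and -2.30 (adjusted p = 0.0133) in HZ and -1.72 (adjusted p = 0.00256) in LC boars for SHMT1. MAT1A, a synthetase of the methyl donor, had 3.09 (adjusted p = 0.000124) in HZ and 2.41 (adjusted p = 0.00028) in LC boars and BHMT, which remethylates homocysteine, 4.99 (adjusted p = 0.000784) in HZ and 2.44 (adjusted p = 0.000335) in LC boars, at up to 7.94 and 9.89 CPM. BHMT had 1.86 (adjusted p = 0.0338) in Ha vs La, and GNMT, which uses the donor up, had -3.78 (adjusted p = 0.00953) in Hb vs Lb. SHMT2 was at 0 in each library of Ha, Hb and Lb and was not tested.

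Chromatin partners of the methyltransferases gave, of 16 tested, 5 higher and 0 lower at 120 days in HZ boars (median log2 fold change 0.46) and 8 higher and 0 lower in LC boars (1.01). In HZ boars the 5 of 16 called higher were near the share of 28.2% of all mRNAs. By the adjusted p alone 7 were higher and 3 lower there and 10 higher and 4 lower in LC boars. USP7, a deubiquitinase that binds DNMT1 and UHRF1, had 1.93 (adjusted p = 2.92e-05) in HZ and 1.79 (adjusted p = 7.71e-07) in LC boars, and TRIM28, a corepressor that protects imprinted methylation, had 2.14 (adjusted p = 7.85e-05) in HZ and 2.08 (adjusted p = 2.33e-06) in LC boars. CDCA7, which works with the remodeller HELLS, had -1.14 (adjusted p = 0.00567) in Ha vs La, lower in La as UHRF1 was by the adjusted p alone. CTCFL, a germ cell paralogue of CTCF, had -1.84 (adjusted p = 0.0324) there and 1.002 (adjusted p = 0.163) in HZ and 3.94 (adjusted p = 5.76e-06) in LC boars, with an interaction of 2.92 (adjusted p = 0.0336).

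The piRNA route, which directs DNMT3A and DNMT3L to transposons, gave, of 6 and 7 tested, 3 higher and 1 lower at 120 days in HZ boars and 3 higher and 2 lower in LC boars. On the lower side these counts were near the 23.2% and 20.1% of all mRNAs, and on the higher side they stood against 28.2% and 27.5%. PIWIL4, its nuclear PIWI protein, was at 10.8, 12.9 and 23.6 CPM in Ha, 2.15, 4.46 and 5.21 in Hb, 25.1, 23.8 and 16.2 in La and 1.295, 2.02 and 0.462 in Lb. Its log2 fold changes were -2.01 (adjusted p = 0.00429) in HZ and -4.08 (adjusted p = 5.82e-05) in LC boars. PIWIL2, which acts in the cytoplasm, had 1.10 (adjusted p = 0.000141) in HZ and 1.64 (adjusted p = 4.3e-06) in LC boars. TDRD9 had 2.105 (adjusted p = 1.33e-05) in HZ and 2.83 (adjusted p = 2.08e-07) in LC boars. In Ha vs La TDRD9 had -1.07 (adjusted p = 0.00149) and the nuclease PLD6 -1.13 (adjusted p = 0.015). SPOCD1 was at 0 in each Lb library and MOV10L1 in each Ha and La library, so no median is given.

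Germline genes known to be silenced by promoter methylation in somatic cells were higher at 120 days, of 8 tested, 6 higher and 0 lower at 120 days in HZ boars (median log2 fold change 2.45) and 7 higher and 0 lower in LC boars (3.40). The helicase DDX4 had 4.79 (adjusted p = 1.72e-06) in HZ and 4.91 (adjusted p = 6.78e-08) in LC boars and MAEL, of transposon silencing, 3.13 (adjusted p = 4.7e-06) in HZ and 3.71 (adjusted p = 8.74e-08) in LC boars. DAZL, a regulator of translation, had -1.66 (adjusted p = 0.00298) in Ha vs La and the surface protein TEX101 1.24 (adjusted p = 0.0218) in Hb vs Lb. The part of germ cells in these changes was not tested.

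DNMT1 and UHRF1 act at replication, and genes of S phase and mitosis gave, of 15 tested, 6 higher and 3 lower at 120 days in HZ boars (median log2 fold change 0.46) and 7 higher and 1 lower in LC boars (0.85). All mRNAs had 28.2% higher and 23.2% lower in HZ boars, so the 3 lower were near that share, and 27.5% and 20.1% in LC boars. The summed level of the list was 1378, 1461 and 1276 CPM in Ha, 2614, 2357 and 2658 in Hb, 1167, 944 and 1056 in La and 2216, 1917 and 1912 in Lb, with MCM7 the most abundant by FPKM in each group. This sum was higher in each 120-day library than in each 30-day library, as DNMT1 was, while UHRF1 was not. It joins genes that went both ways, so it is no measure of replication alone. In HZ boars the mean levels of BUB1 and CCNB2 went from 39.4 and 8.75 to 345 and 155 CPM. Those of MCM2, MCM3 and MCM6 went from 122, 113 and 236 to 50.2, 38.4 and 147 CPM. MCM4, MCM5 and MCM7 had higher mean CPM at 120 days there. On the FPKM scale only MCM4 of these had a higher mean (5.39 in Ha and 7.92 in Hb). MCM5 went from 20.4 to 18.9 FPKM and MCM7 from 95.1 to 80.0. MCM2, of the replicative helicase, had -1.29 (adjusted p = 0.000754) in HZ and -1.01 (adjusted p = 0.000269) in LC boars, and the mitotic genes BUB1 and CCNB2 had 3.13 (adjusted p = 5.61e-05) in HZ and 3.47 (adjusted p = 2.26e-07) in LC boars for BUB1 and 4.15 (adjusted p = 9.48e-06) in HZ and 4.07 (adjusted p = 5.11e-07) in LC boars for CCNB2. In Ha vs La, where UHRF1 passed the adjusted p alone on the lower side, MKI67 had -1.14 (adjusted p = 0.00126), CCNB1 -1.06 (adjusted p = 0.00157) and RRM2 -1.36 (adjusted p = 0.0161). The part of cell division in the levels of DNMT1 and UHRF1 was not tested.

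Markers of germ cells moved with age beside the members. Spermatogonia were mixed, of 11 tested, 3 higher and 6 lower at 120 days in HZ boars and 4 higher and 5 lower in LC boars, with sums of 369, 363 and 304 CPM in Ha, 857, 820.3 and 817 in Hb, 223, 222 and 231 in La and 701, 638 and 657 in Lb and DAZL (Ha), ZBTB16 (La) or DDX4 (Hb and Lb) the most abundant. DDX4 alone was at 19.8, 22.7 and 19.2 CPM in Ha and 629, 511 and 570 in Hb. The higher sums in Hb thus rest on that gene. In HZ boars the 3 called higher were near the 28.2% of all mRNAs, and the 6 lower stood against 23.2%. GFRA1, of undifferentiated spermatogonia, had -2.15 (adjusted p = 0.00252) in HZ and -1.81 (adjusted p = 0.000389) in LC boars, lower like DNMT3A, DNMT3L and the TET genes, and STRA8, of entry into meiosis, had 2.30 (adjusted p = 0.00656) in HZ and 4.46 (adjusted p = 0.00136) in LC boars. NANOS2, another early marker, had 13, 20 and 35 counts in Ha, 0, 1 and 2 in Hb, 15, 21 and 16 in La and 1, 0 and 1 in Lb. Like DNMT3L, it had few counts at 120 days. At 30 days its mean count was 22.7 in Ha and 17.3 in La, against 35 and 45.3 for DNMT3L. Spermatocyte markers gave, of 8 tested, 8 higher and 0 lower at 120 days in HZ boars (median log2 fold change 3.58) and 8 higher and 0 lower in LC boars (4.26), with sums of 31.7, 35.6 and 19.9 CPM in Ha, 783, 676 and 651 in Hb, 16.1, 14.1 and 12.7 in La and 502, 485 and 494 in Lb and PIWIL1, or MEIOB in La, the most abundant. PIWIL1 had 5.83 (adjusted p = 7.44e-06) in HZ and 6.49 (adjusted p = 2.81e-08) in LC boars and -1.21 (adjusted p = 0.0234) in Ha vs La, and SYCP2 had 3.76 (adjusted p = 3.22e-05) in HZ and 4.62 (adjusted p = 4.32e-07) in LC boars and -1.29 (adjusted p = 0.0188) in Ha vs La, where SYCP1 had -1.38 (adjusted p = 0.042) and HORMAD1 -1.69 (adjusted p = 0.0188). Spermatid markers gave, of 9 tested, 9 higher and 0 lower at 120 days in HZ boars and 9 higher and 0 lower in LC boars, with sums of 4.99, 5.54 and 6.48 CPM in Ha, 6524, 5789 and 8232 in Hb, 8.87, 7.74 and 4.41 in La and 4193, 3452 and 3154 in Lb and PRM1 the most abundant. They include ODF1, at 0.460, 0.482 and 0.505 CPM in Ha and 1013, 886 and 1229 in Hb, TSSK6, at 0.384, 0.321 and 0.427 and 530.2, 309 and 537, and AKAP4, which had -1.10 (adjusted p = 0.0283) in Hb vs Lb. No median is given for spermatogonia and spermatids, since NANOS2 at 120 days and TNP1, ACRV1 and SPACA3 at 30 days had at most 3 counts in each library of a breed. Between the ages, DNMT1 was higher where these meiotic and later markers were. Within Hb and within Lb its order did not follow that of the spermatocyte or spermatid sums. Hb3, with the highest spermatid sum, had the lowest DNMT1 level of Hb, at 283 CPM. Lb3, with the lowest spermatid sum of Lb, had the highest, at 390 CPM. The part of germ cells in the members' changes was not tested.

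Somatic markers were mostly lower at 120 days, as DNMT3A and the TET genes were. Sertoli markers gave, of 8 tested, 0 higher and 4 lower at 120 days in HZ boars (median log2 fold change -1.12) and 0 higher and 4 lower in LC boars (-0.97), with sums of 1269.8, 1209.6 and 1664 CPM in Ha, 405, 579 and 467 in Hb, 2642, 3213 and 2914 in La and 605, 753 and 640.5 in Lb and INHA (30 days) or CLDN11 (120 days) the most abundant. AMH, of immature Sertoli cells, had -4.91 (adjusted p = 9.21e-05) in HZ and -6.35 (adjusted p = 2.31e-05) in LC boars and GATA4 -2.19 (adjusted p = 4.53e-05) in HZ and -1.48 (adjusted p = 5.38e-05) in LC boars. In Ha vs La, AMH had 1.96 (adjusted p = 0.00351), INHA 1.51 (adjusted p = 0.00235) and FSHR 1.22 (adjusted p = 0.00246). Leydig markers gave, of 7 tested, 0 higher and 4 lower at 120 days in HZ boars (median log2 fold change -2.41) and 0 higher and 5 lower in LC boars (-1.19), with sums of 10086, 9586 and 8750.2 CPM in Ha, 4066, 331 and 268 in Hb, 13676, 9326 and 11211 in La and 4922, 7417 and 3086 in Lb, with Hb1 far above Hb2 and Hb3, and CYP17A1 (30 days) or INSL3 (120 days) the most abundant. LHCGR had -2.41 (adjusted p = 0.0148) in HZ and -1.45 (adjusted p = 0.000271) in LC boars, STAR -5.69 (adjusted p = 0.00496) in HZ and -2.96 (adjusted p = 0.000498) in LC boars and HSD17B3 1.15 (adjusted p = 0.00232) in Ha vs La. Hb1, with the highest Leydig sum of the Hb libraries, had the lowest TET3 level of them. Other groups did not share this. Ha1 and La1, with the highest Leydig sums of Ha and La, had the highest TET3 levels there. In Lb, Lb2 had the highest sum and a TET3 level between those of Lb1 and Lb3.

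Peritubular and stromal markers gave, of 10 tested, 0 higher and 8 lower at 120 days in HZ boars (median log2 fold change -2.83) and 1 higher and 5 lower in LC boars (-1.14), with sums of 4731, 4586 and 4509 CPM in Ha, 608, 354 and 255 in Hb, 6908, 6180.4 and 7613 in La and 3084, 3007 and 2571 in Lb and COL3A1, or ACTA2 in Hb, the most abundant. DCN had -2.11 (adjusted p = 4.19e-05) in HZ and -1.91 (adjusted p = 1.08e-06) in LC boars and LUM -3.55 (adjusted p = 0.00105) in HZ and -2.88 (adjusted p = 1.63e-05) in LC boars. In Hb vs Lb, where TET1 and TET2 were higher in Lb without a call, COL1A1 had 4.53 (adjusted p = 0.000951), COL1A2 3.64 (adjusted p = 0.0244), COL3A1 3.86 (adjusted p = 0.0284), PDGFRB 2.57 (adjusted p = 0.0249) and ACTA2 1.96 (adjusted p = 0.00953). Endothelial markers gave, of 5 tested, 0 higher and 5 lower at 120 days in HZ boars (median log2 fold change -2.31) and 0 higher and 3 lower in LC boars (-1.25), with sums of 669, 681 and 616 CPM in Ha, 173, 305 and 186 in Hb, 795, 627 and 756 in La and 316, 497 and 278 in Lb and VWF the most abundant. PECAM1 had -3.18 (adjusted p = 7.1e-06) in HZ and -1.25 (adjusted p = 0.00453) in LC boars and 1.41 (adjusted p = 0.0484) in Hb vs Lb, and KDR had -1.75 (adjusted p = 0.000268) in HZ and -1.63 (adjusted p = 2.39e-05) in LC boars. Macrophage markers gave, of 5 tested, 0 higher and 5 lower at 120 days in HZ boars (median log2 fold change -3.01) and 0 higher and 4 lower in LC boars (-1.80), with sums of 124, 101 and 106 CPM in Ha, 17.5, 20.1 and 10.7 in Hb, 122, 107 and 115 in La and 21.3, 37.8 and 35.9 in Lb and CD163 (Ha) or CSF1R the most abundant. CD163 had -3.01 (adjusted p = 1.98e-05) in HZ and -2.53 (adjusted p = 6.47e-05) in LC boars, and AIF1 -3.75 (adjusted p = 0.000183) in HZ and -1.80 (adjusted p = 0.000425) in LC boars and 2.17 (adjusted p = 0.0447) in Hb vs Lb. No marker of the 8 lists was at 0 in every library of a group. Apart from ACTA2 in LC boars, the calls of the somatic lists with age had the direction of DNMT3A, TET1, TET2 and TET3, and their part in the result was not tested.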

How the data were processed

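The authors removed ribosomal RNA from total testis RNA, built strand-specific libraries, trimmed reads with fastp 0.18.0, removed ribosomal reads with Bowtie2 2.2.8, aligned to Sscrofa11.1 with HISAT2 2.1.0 and assembled transcripts with StringTie 1.3.4. The estimated count of each mRNA and lncRNA was deposited by the authors without naming the tool that made it. FPKM, which the authors calculated with StringTie, was deposited rounded to 2 decimals.

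Estimated counts were rounded, filtered with filterByExpr (minimum count 10) and tested over all mRNAs with edgeR 4.0.16 (TMM factors, quasi-likelihood, Benjamini-Hochberg adjusted p) under R 4.3.3, on 6 libraries for each comparison and on 12 for the interaction of breed and age. lncRNAs within 10 kb of a member were tested in the same way over all lncRNAs. Levels, shares and ratios (pseudocount 0.01 FPKM) were computed with Python 3.11.15, numpy 2.4.6, pandas 2.3.3 and scipy 1.17.1, and drawn with matplotlib 3.10.9.

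The members and lists were chosen with earlier results of these data known. The lists reported were repair, methyl donor supply, chromatin partners, the piRNA route, germline genes silenced by methylation, replication and division, and markers of 8 cell types. A further list, and the mRNAs most like TET3, are not reported here. Named were the members, the 3 mRNAs most like each member but TET3, and from each list up to 2 genes in each direction with the smallest adjusted p among those called with age in both breeds without overlap, beside those called between breeds or in the interaction. Genes at neighbouring loci were named for their position. MCM3 to MCM7 were named as parts of the replication sum.

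Alternatives were DESeq2 1.42.0, library sizes only, RLE factors, no filter, a minimum of 10 counts throughout a group, 1 fit of the 12 libraries, limma 3.58.1 on log2(FPKM + 1) or log2(FPKM + 0.1), the adjusted p alone, replicate numbers as a block, leaving out each library, windows of 5 and 50 kb, and a pseudocount of 0.1 FPKM. Where a library was left out, the 2 left in its group stood for it. Nothing in the labels pairs the boars.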

Additional observations from a re-analysis of the deposited data

Results flagged for a closer look

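The change with age differed between the breeds, by the interaction term of edgeR over 12 libraries, for 16 of 133 genes tested of the lists reported (12.0%), against 890 of 17332 (5.14%) of all mRNAs. None of the 8 members is among them, and UHRF1, at 0.92 (adjusted p = 0.0796), came nearest. The lists were chosen with earlier results of these data known, so the 12.0% is a description and was not tested against the 5.14%.

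Positive values mean a higher 120-day level relative to 30 days in LC than in HZ boars. Among germ cell genes the log2 difference was 1.53 (adjusted p = 0.0104) for DAZL, 1.299 (adjusted p = 0.041) for KIT, 1.39 (adjusted p = 0.0219) for PLD6, 2.92 (adjusted p = 0.0336) for CTCFL, -1.83 (adjusted p = 0.0322) for PRM1 and -2.96 (adjusted p = 0.0359) for ACRV1. ACRV1 had at most 3 counts in each Ha library, so its fitted value depends on the prior count. AURKB, a mitotic kinase, had -1.22 (adjusted p = 0.0265). For the methyl donor cycle it was 1.09 (adjusted p = 0.0309) for MTHFD1 and -4.28 (adjusted p = 0.0408) for GNMT, where GNMT itself had 4.86 (adjusted p = 0.00193) in HZ and 0.60 (adjusted p = 0.357) in LC boars.

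Among stromal genes the difference was 4.02 (adjusted p = 0.000372) for COL1A1, 3.19 (adjusted p = 0.0352) for COL3A1, 2.83 (adjusted p = 0.0372) for COL1A2, 2.54 (adjusted p = 0.00114) for ACTA2 and 2.09 (adjusted p = 0.0282) for PDGFRB. The endothelial gene PECAM1 had 1.92 (adjusted p = 0.0149) and the macrophage gene AIF1 1.94 (adjusted p = 0.0286). Of these 7 genes, 6 were lower at 120 days in both breeds and further so in HZ boars, while ACTA2 was lower in Hb than Ha and higher in Lb than La, and their summed lists are given with the markers.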

How the results depend on the processing

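The direction of the log2 fold changes with age held for each of the 8 members in each alternative and without each library. Of the members' log2 fold changes over all comparisons and settings, 620 kept direction and side of the test, 14 newly passed it, 12 no longer passed it and 18 reversed. Of the ratios, 21 kept their value within 1 SD and 3 moved with a pseudocount of 0.1 (TET1 over TET3 in Lb to 2.56, TET2 over TET3 to 2.08 in Ha and 2.79 in Lb).

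With limma on log2(FPKM + 1), 3 members were called with age in HZ boars and 3 in LC boars. By the adjusted p alone 3 members and 3333 mRNAs passed in Ha vs La, where limma on log2(FPKM + 1) called 507 mRNAs. Without 1 library the members called there were 0 to 1. In the interaction of breed and age 1 member was called with library sizes only, 1 with limma on log2(FPKM + 0.1), and 0 to 1 without 1 library.

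The mRNAs called in Hb vs Lb were 1176 with DESeq2, 1258 with all 12 libraries in 1 fit and 97 to 1029 without 1 library. In the interaction they were 1364 with DESeq2, 1365 with limma on log2(FPKM + 0.1) and 437 to 1242 without 1 library. Within 50 kb of the members lay 5 lncRNAs.

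Reversals all concerned values that had not passed the test. TET3 in Ha vs La had -0.0356 with limma on log2(FPKM + 0.1), and -0.47 to 0.68 without 1 library. DNMT1 in Hb vs Lb had -0.0696 to 0.18 without 1 library. In the interaction DNMT3B had 0.0499 with library sizes only, 0.0469 and 0.0685 with limma on log2(FPKM + 1) and log2(FPKM + 0.1), and -0.27 to 0.14 without 1 library. DNMT3L had -0.23 and -0.29 with these limma fits and -0.21 to 2.16 without 1 library. The cause was not tested.

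With the replicate block, 8430 mRNAs were called with age in HZ boars, 7770 in LC boars, 1030 in Ha vs La, 154 in Hb vs Lb and 672 in the interaction, and TET3 in Ha vs La had -0.0135. The adjusted p of DNMT3B in La vs Lb was 0.0597 there, from a range of 0.00937 to 0.219. The replicate block changed no call of a member by both thresholds. Libraries of the same number correlated at -0.02 to 0.05, and in Ha vs Hb all 3 correlated best with their own number, as a hint from the data and not the design.

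DNMT3L, at 0 to 7 counts in each 120-day library, could be fitted in Hb vs Lb only with no filter or all 12 libraries, at 0.95 and 0.95, and its level there rests on few reads.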

Other observations

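Among the Ha libraries, Ha3 was the one nearest the La mean for 6 of the 8 members, all but DNMT3B and TET3, and for 6 of 9 summed lists. This was noticed after the data were seen. Without Ha3 the log2 fold change in Ha vs La was 1.051 for TET1 (adjusted p = 0.00706, from a range of 2.48e-06 to 0.0137 over the alternatives) and -0.996 for UHRF1 (adjusted p = 0.00756). As Ha3 was nearest the La mean for both genes, leaving it out had to widen these differences, so the larger values are no separate support.

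Of the lncRNAs farther from the members, MSTRG.13522.2, 26.8 kb from TET2 on the minus strand, had estimated counts of 0, 0 and 1 in Ha, 105, 60 and 50 in Hb, 1, 0 and 0 in La and 48, 74 and 35 in Lb, while TET2 was higher at 30 days.

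Several limits bear on these values. Each group holds 3 boars, and age and breed are each read from bulk testis, so cell composition and level per cell are joined. RNA levels say nothing of protein, enzyme activity or methylation, and methylation was not analysed here. The source of the estimated counts and its strand setting are not given in the sources used here, which leaves the division of reads between UHRF1 and ARRDC5, between TET3 and LOC102163719 and between DNMT3A and its lncRNA unknown. FPKM carries 2 decimals, which is coarse for DNMT3L and TET3.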
